A study of Homo sapiens with 4 samples.

Results

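The intervals described here are those listed with the same chromosome, start, end and strand after cigarette smoke extract (CSE) alone and after CSE with METTL3 knockdown. Their number was 7258, while the CSE list holds 11038 intervals and the list of the knockdown 13691. They made up 65.8% of the CSE list (Wilson 95% interval 64.9 to 66.6) and 53.0% of the knockdown list (52.2 to 53.8). They were chosen by presence and equal borders in both lists, so their being shared is not a result. What is described is where each one ranked, by the authors' score, within each whole list, how that place differed between the lists, and what the intervals are.

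N6-methyladenosine (m6A) was mapped by MeRIP-seq, which pulls methylated fragments of poly(A) RNA down with an antibody (IP) and sequences them next to RNA that skipped this step (input). The cells were 16-HBE, an established human bronchial epithelial line. Per the labels, the CSE group is wild type and the other group carries a Mettl3 knockdown by siRNA, and both received CSE at 5% over 24 h. Each group has an IP and an input sample, 4 in all, and every group shares the smoke exposure, so no unexposed group was compared. No control siRNA appears in the titles, so knockdown and transfection cannot be told apart. The design mentions 3 replicates in each condition, but a single list of each was analysed. No value below therefore has a replicate spread, no test was possible, and a difference is one between these 2 lists. Intervals of shares and medians cover counting error only and treat intervals as independent, which exons of one gene are not.

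METTL3 is the catalytic subunit of a nuclear complex that places m6A on nascent messenger RNA together with METTL14, WTAP, VIRMA and ZC3H13. The mark is placed mainly in a short consensus around GGAC, and it is enriched in long internal exons and near stop codons, while short internal exons close to splice junctions are largely spared. Reader proteins such as the YTH family bind the mark and alter splicing, export, translation and decay of the RNA.

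Most shared intervals had the borders of whole exons. Lengths coincide with those of unrelated exons less often in intervals over 1000 nt than in shorter ones. Of these 1096 shared intervals, 872 had exactly the length of a GENCODE exon on the same chromosome and strand, a share of 79.6% (77.1 to 81.8). With 1 to 5 nt added or taken away the share was between 31.8% and 37.8%. Intervals of that width that overlapped the other list with different borders reached 35.8% in CSE and 37.1% with knockdown. For those found in a single list the share was 53.2% in CSE and 55.2% with knockdown. Spacing gave the same picture: of 9384 pairs of shared intervals starting within 100000 nt of each other on a strand, 6953, or 74.1%, had the lengths and the exact spacing of a pair of exons of a single gene. When the spacing was changed by 1 to 5 nt in either direction, at most 94 pairs, or 1.002%, did. The borders of such intervals are therefore exon borders, which need not mark how far the m6A signal reached. Borders were also partly shared outside the rule, since 1485 of the 1587 overlapping pairs with other borders (93.6%) had an equal start or an equal end.

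This structure allowed exons to be named without carrying any position between genome builds. An interval was named when it formed such a pair and all its pairs led to 1 exon of 1 gene. In this way 4974 shared intervals (68.5%) were named, in 2016 genes, and 4971 of them lay in protein-coding genes. A further 135 led to several exons or genes and 2149 had no matching pair. Naming requires a second listed interval in the gene, so single listed exons stay unnamed, and named intervals were narrower (median 172 nt) than the others (464 nt). Of the named intervals 4134, or 83.1%, were wholly coding, 441 held the start codon, 226 held the stop codon, 144 lay in the 5' UTR, 8 in the 3' UTR and 21 in a transcript with no coding part. Internal exons made up 88.7%.

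To show actual members, 8 exons with large rank differences are printed. The 4 wholly coding exons of up to 300 nt that gained most rank with knockdown, and the 4 that lost most, are given with hg19 positions, in the direction of the transcript as GENCODE release 29 gives it. Capitals mark GGAC, the core of the m6A consensus. Those that gained rank were:
HNRNPM, chr19:8530208-8530399, plus strand: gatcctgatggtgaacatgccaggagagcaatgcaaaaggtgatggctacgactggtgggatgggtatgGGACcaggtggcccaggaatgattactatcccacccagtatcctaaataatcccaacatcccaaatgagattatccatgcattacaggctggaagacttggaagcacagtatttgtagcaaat
PRRC2C, chr1:171505168-171505417, plus strand: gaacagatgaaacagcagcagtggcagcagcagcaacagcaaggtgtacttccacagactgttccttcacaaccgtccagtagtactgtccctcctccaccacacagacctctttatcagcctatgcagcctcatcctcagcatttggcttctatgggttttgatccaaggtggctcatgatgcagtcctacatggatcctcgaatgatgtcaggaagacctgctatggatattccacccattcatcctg
TPR, chr1:186307165-186307375, minus strand: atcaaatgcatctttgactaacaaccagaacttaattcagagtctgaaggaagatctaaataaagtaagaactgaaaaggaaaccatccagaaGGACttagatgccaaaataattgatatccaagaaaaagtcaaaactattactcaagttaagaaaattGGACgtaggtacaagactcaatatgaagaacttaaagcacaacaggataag
CDC42BPB, chr14:103442220-103442386, minus strand: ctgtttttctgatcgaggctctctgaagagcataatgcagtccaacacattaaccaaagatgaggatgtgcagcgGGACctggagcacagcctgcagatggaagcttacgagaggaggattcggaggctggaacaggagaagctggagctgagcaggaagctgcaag
Those that lost rank were:
RILPL1, chr12:123983091-123983312, minus strand: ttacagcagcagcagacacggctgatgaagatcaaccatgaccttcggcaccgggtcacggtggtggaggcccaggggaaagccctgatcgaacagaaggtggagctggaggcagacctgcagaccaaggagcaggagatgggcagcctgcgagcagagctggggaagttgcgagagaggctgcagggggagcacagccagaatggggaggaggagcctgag
PACSIN2, chr22:43272143-43272339, minus strand: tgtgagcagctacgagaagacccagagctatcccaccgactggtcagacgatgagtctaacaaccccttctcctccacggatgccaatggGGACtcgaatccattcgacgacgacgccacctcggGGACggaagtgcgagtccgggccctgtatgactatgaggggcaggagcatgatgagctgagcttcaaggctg
TOP1, chr20:39721112-39721227, plus strand: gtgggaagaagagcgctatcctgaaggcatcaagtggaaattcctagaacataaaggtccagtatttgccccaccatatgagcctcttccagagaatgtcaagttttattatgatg
TMEM255B, chr13:114498121-114498210, plus strand: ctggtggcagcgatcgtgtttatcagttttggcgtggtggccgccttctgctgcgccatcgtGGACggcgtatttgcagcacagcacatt
GGAC was found in 3 of the 4 exons that gained and in 2 of the 4 that lost, too few to compare with the shares over all exons given later. Larger differences in wider or unnamed intervals are described further on. HNRNPM encodes a splicing regulator that binds RNA, PRRC2C a protein of stress granules, TPR the filament protein of the nuclear pore basket and CDC42BPB a kinase that acts on actin and myosin. RILPL1 encodes a partner of Rab GTPases at the base of the cilium, PACSIN2 a membrane-bending protein of endocytosis and TOP1 DNA topoisomerase I.

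Rank is given as a percentile of the score within each whole list, with 100 for the highest score and tied scores sharing their mean rank. A change is the knockdown percentile minus the CSE percentile, in points. The score itself, whose scale is not stated, is the authors' value for each interval and was never subtracted between lists. Shared intervals sat higher in the knockdown list: their median percentile was 56.0 in CSE and 65.8 with knockdown. The median change of single intervals was 5.82 points (5.35 to 6.31), with quartiles of -1.96 and 18.2. By at least 10 points, 2904 of the 7258 (40.01%) moved up and 995 (13.7%) moved down. Among all 8813 overlapping pairs in which each interval has a single partner, whatever their borders, 39.2% moved up and 15.4% moved down by as much. The 7258 are themselves 82.4% of these pairs, so nothing is read from the closeness. By at least 25 points 1192 moved up (16.4%, background 16.4%) and 341 down (4.70%, background 5.72%). Of the 1555 such pairs with other borders 35.4% moved up and 23.3% (21.3 to 25.5) moved down by at least 10 points. They were much wider, with a median of 1256 nt in CSE, and 1468 of them were over 300 nt. Among pairs over 300 nt, 23.9% (21.8 to 26.2) with other borders and 18.3% (16.9 to 19.8) with identical borders moved down.

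**Figure D1:**
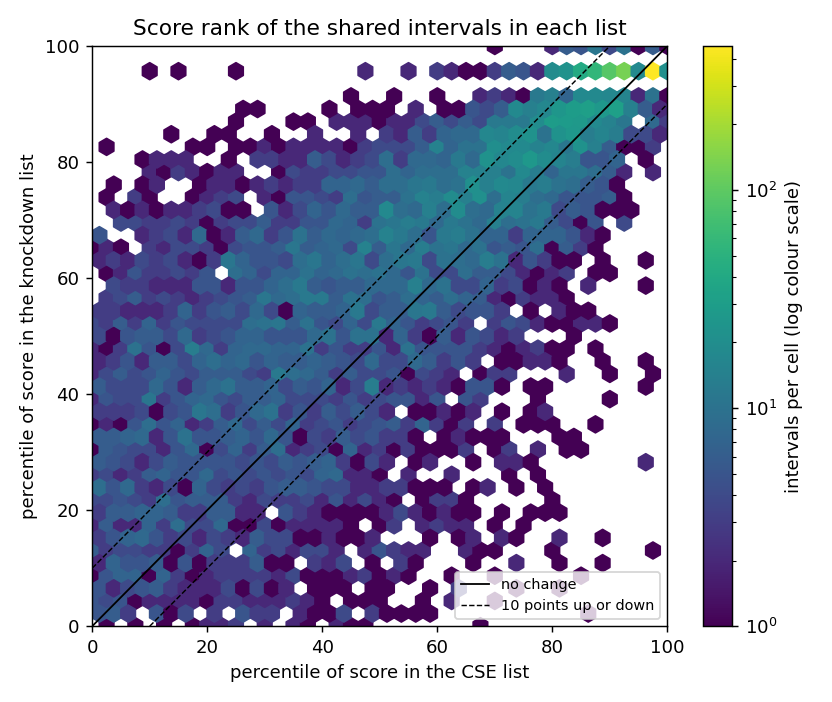
Percentile of each shared interval's score in CSE (horizontal axis) and with knockdown (vertical axis), with the number of intervals per cell on a log colour scale. More of the 7258 intervals lie above the upper dashed line (2904, up by at least 10 points) than below the lower one (995), and the row near the top of the vertical axis holds scores tied at 3100.

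The lists differ in length, so a percentile also depends on the intervals that are not shared. Ranked among the 7258 shared intervals alone, which gives both conditions the same number of ranks, the median change was -0.23 points, close to 0 by construction. On that scale 1871 moved up and 1765 moved down by at least 10 points. Changes below are those of the whole lists unless the second scale is named, and the second scale is given beside the main groups and genes. The order itself was partly kept, with a Spearman correlation of 0.78 between the scores of the 7258 intervals, a description of 2 lists made from the same exons. Scores pile up at 3100, and 458 shared intervals had exactly this score in both lists. Each of these is assigned -1.31 points in the whole lists and -2.86 among shared intervals. These values depend only on the number of ranked intervals and on how many are tied at 3100 or score above it. The top 10% held 884 shared intervals in CSE and 1083 with knockdown, of which 748 were in both, the 458 ties at 3100 included. The lowest 10% held 526 in CSE and 247 with knockdown, of which 67 were in both.

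Short intervals gained more rank than wide ones. The 4556 shared intervals of up to 300 nt had a median change of 8.41 points (7.86 to 9.10), and 46.5% moved up and 11.0% down by at least 10 points. The 2702 wider ones had a median of 1.79 points (1.02 to 2.30), with 29.02% up and 18.3% down. The medians ran from 9.20 points in intervals of up to 100 nt and 8.99 in those over 100 and up to 200 nt, through 6.01 up to 300 nt and 2.37 up to 1000 nt, to 1.19 up to 2000 nt and -1.12 over 2000 nt. Ranked among shared intervals alone, short intervals had a median of 1.87 points, with 1351 up and 964 down. Wide ones had -2.86, the value of ties at 3100, with 520 up and 801 down. Without any interval at or above 3100 in either list, the whole-list medians were 9.89 points for short and 2.79 points for wide intervals. On the second scale the medians of these intervals were 1.94 points for short and -3.94 (-4.63 to -3.09) for wide ones. The lower median of wide intervals was thus also seen without the ties.

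**Figure D2:**
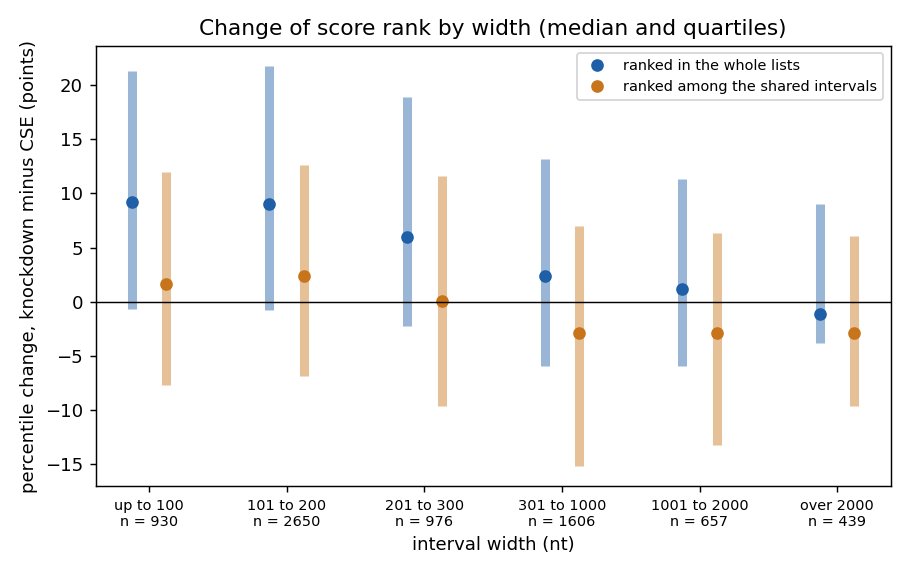
Median (points) and quartiles (bars) of the percentile change in 6 width classes, ranked in the whole lists (blue) and among the shared intervals (orange). The whole-list median falls from 9.20 points in intervals of up to 100 nt to -1.12 points in those over 2000 nt. The orange medians of -2.86 in the wide classes equal the value of ties at 3100. Without scores at or above 3100 they were -3.95, -4.15 and -3.38 points, in order of width.

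Wide intervals started from higher ranks, which leaves less room to rise. In CSE the median percentile was 47.9 for short and 69.7 for wide intervals, and with knockdown 61.4 and 73.3. The difference by width was therefore read within classes of similar mean percentile over both lists. In the class from 20 to 40 the median change was 15.9 points for 1108 short intervals and 4.79 points for 364 wide ones. From 40 to 60 it was 15.4 and 6.996 points, and from 60 to 80 it was 9.35 and 4.01 points. Their 95% intervals did not overlap in these 3 classes. Below 20 the medians were 5.14 (3.76 to 6.58) and 2.36 points (-0.87 to 4.66), with overlapping intervals. Above 80 they were 2.46 and -1.31, the latter again the value of ties.

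By position, strand made no visible difference, with medians of 5.95 points for 3733 intervals on the plus strand and 5.73 points for 3525 on the minus strand (-0.41 and -0.028 among shared intervals). The short intervals had a higher median than the wide ones on all 23 chromosomes compared (the autosomes and X). The whole-chromosome median was highest on chromosome 18, at 12.3 points (5.39 to 14.8) for 114 intervals, then on chromosome 15 with 9.17 and chromosome 2 with 8.21. It was lowest on chromosome 19, at 0.051 points (-1.31 to 2.33) for 403 intervals, then on chromosome 22 with 1.81 and chromosome 20 with 2.67. On chromosome 19, 110 intervals moved up and 82 down by at least 10 points, and on chromosome 18 these numbers were 59 and 11. The chromosome 19 median was low among short intervals too, at 1.75 points for 214, against 14.7 points for the 77 short ones on chromosome 18. Ranked among shared intervals alone, the chromosome median was above 0 on 12 of the 23 and below 0 on 11, and short intervals were above wide ones on 22. Chromosomes 18 (2.69 points) and 15 (2.37) remained the highest, while 19, 20 and 22 had the value of ties, -2.86. Chromosome Y held 11 shared intervals, too few to describe.

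**Figure D3:**
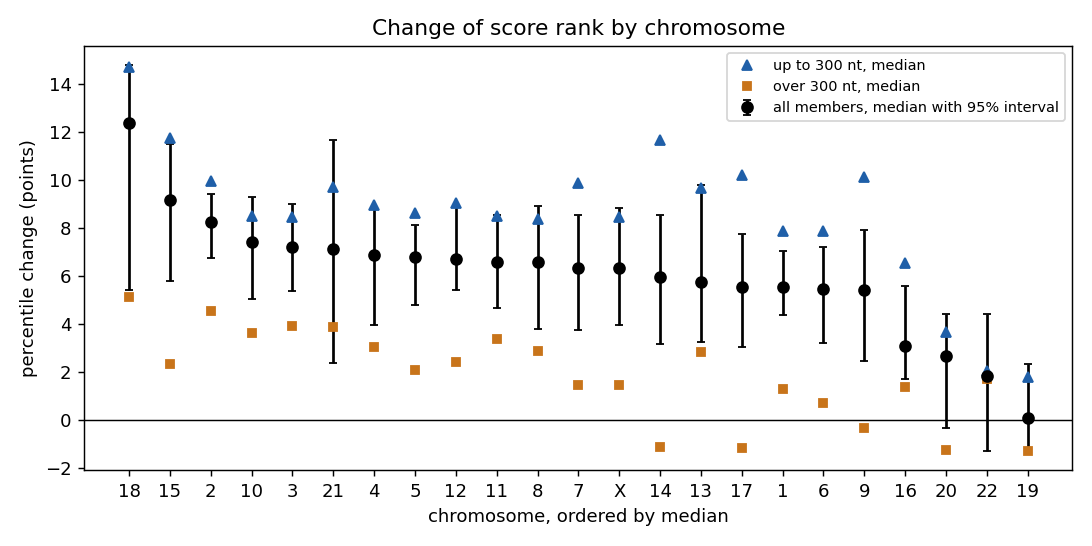
Median percentile change (points) of shared intervals on 23 chromosomes (autosomes and X), with its 95% interval (black), and the medians of intervals of up to 300 nt (blue triangles) and over 300 nt (orange squares). Chromosomes 18 and 15 are highest, chromosomes 20, 22 and 19 are lowest, and the triangle lies above the square on each chromosome.

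By distance the medians differed less than by width. Intervals with another listed interval within 1000 nt on their strand had a median change of 7.56 points (543 intervals). Those with the nearest between 1000 and 10000 nt had 6.71 points (4132), and those farther from any other had 4.09 points (2583). These classes also differ in width, with medians of 163, 176 and 362 nt. Among short intervals alone the medians were 8.55, 8.96 and 7.38 points, and among wide ones 1.29, 1.65 and 1.90. On the second scale the 3 distance classes had medians of 1.45, 0.97 and -2.31 points.

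Exons poor in G and C gained more rank than exons rich in them. The named exons were divided into 4 classes of nearly equal number by their own GC content. The median change was 10.1 points (9.18 to 11.6) for 1244 exons of 23.0 to 41.1% GC, then 8.35 and 6.38 points, and 2.29 points (1.58 to 3.17) for 1244 exons of 55.3 to 88.2%. By at least 10 points, 627 exons of the lowest class moved up and 82 down, against 393 up and 226 down in the highest. Over all named exons 42.3% moved up and 11.1% moved down by as much. Ranked among shared intervals alone, the class medians were 3.99, 2.44, 0.79 and -2.86 points.

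The order held at like width and rank. For exons of up to 300 nt the medians fell from 10.9 points in the lowest GC class to 5.03 in the highest, and for wider exons from 7.37 to -1.31. For wholly coding exons over 100 and up to 200 nt they were 11.8 (565 exons), 10.1, 9.35 and 4.66 points (385 exons). Among exons of mean percentile 40 to 60 the lowest and highest classes had 19.2 and 5.66 points, and below 20 they had 3.78 and 3.80, so the order was not seen at the lowest ranks. Across the 4974 exons, which share libraries and genes, change and GC content had a Spearman correlation of -0.18 and a Pearson correlation of -0.18. It was weaker between exons of the same gene: after subtracting the gene's mean from both, Spearman's rho was -0.063 over 4277 exons. Using the GC content of the whole transcript, rho was -0.16. Per chromosome, the median change had a Spearman correlation of -0.62 and a Pearson correlation of -0.80 with the median GC content of the named exons, over 23 chromosomes that ranged from 42.9% to 60.7%. The part of fragmentation, amplification or sequencing depth in these values was not tested, since read depths were not used here.

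**Figure D4:**
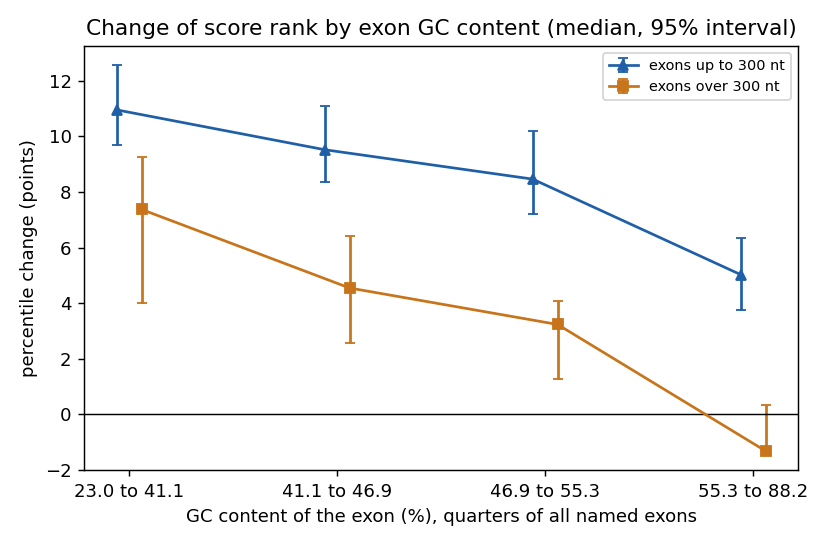
Median percentile change (points) with its 95% interval in 4 classes of exon GC content, for named exons of up to 300 nt (blue) and over 300 nt (orange). Both lines fall from left to right, from 10.9 to 5.03 points in short exons and from 7.37 to -1.31 points in wide ones.

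Rank change differed by exon type, in part along with width. Wholly coding exons had a median change of 7.57 points (1810 of 4134 up and 420 down by at least 10). Exons holding the start codon had 3.87 points (160 of 441 up, 67 down), exons of the 5' UTR 5.33 points (53 of 144 up, 28 down) and exons holding the stop codon 2.39 points (71 of 226 up, 36 down). The latter are wide, with a median of 1131 nt against 159 nt for wholly coding ones. Exons of the 5' UTR had a median of only 219 nt, but a median GC content of 66.0% against 46.0% for wholly coding ones. At over 300 nt the 3 kinds were close, with 2.28 points for wholly coding exons, 2.05 for those with the start codon and 2.13 for those with the stop codon. At up to 300 nt wholly coding exons had 8.96 points (8.31 to 9.68), those with the start codon 7.74 (5.07 to 11.1) and the 35 with the stop codon 2.87 (-1.71 to 13.8), so the intervals overlapped. Among shared intervals only the wholly coding exons kept a median above 0 of these 4 kinds, at 1.64 points, against -1.69 for the start codon, -3.34 for the 5' UTR and -2.86 for the stop codon.

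GGAC was not more frequent in shared exons of ordinary length than in unlisted exons, meaning exons of the same genes matched to no listed interval. Intervals without a matching pair could not be assigned to exons, so some unlisted exons may still lie under listed intervals. The letters were searched on the transcribed strand only, and GGACT is a part of the GGAC matches. Of 2006 wholly coding shared exons over 100 and up to 200 nt, 781 held GGAC, or 38.9% (36.8 to 41.1), beside 42.0% (41.2 to 42.9) of 12632 unlisted exons of that length class. For GGACT the shares were 10.9% (9.58 to 12.3) and 12.3% (11.8 to 12.9). Over 200 and up to 300 nt GGAC was found in 54.8% (50.6 to 58.8) of 568 shared and 61.9% (59.8 to 64.0) of 2008 unlisted exons. Over 300 and up to 1000 nt the order was the opposite. GGAC was found in 88.1% (85.3 to 90.5) of 589 shared and 83.2% (79.2 to 86.5) of 410 unlisted exons, and GGACT in 46.3% (42.4 to 50.4) of 589 shared and 34.9% (30.4 to 39.6) of 410 unlisted exons. The shared exons in that class were also longer, with a median of 531 nt against 396.5 nt, and per kb GGAC stood 4.61 and 4.90 times, and GGACT 1.18 and 1.03 times. A match is only a string of letters and does not show a methylated site.

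The named shared exons were more often over 300 nt than the unlisted ones. Of the named shared exons 26.5% were over 300 nt (17.7% up to 1000 nt, 5.41% over 1000 and up to 2000 nt, and 3.44% over 2000 nt), while of 26983 unlisted exons of 2009 of these genes 5.24%, 1.82% and 2.68% fell in those classes. Wholly coding shared exons holding GGAC did not gain clearly more rank than those without it. Over 100 and up to 200 nt the exons with GGAC were also richer in G and C, with a median of 48.4% against 43.5%. In this class the median change was 8.47 points (7.07 to 10.03) in exons with it and 9.68 points (8.70 to 11.0) in exons without. Over 200 and up to 300 nt it was 7.33 and 6.71 points, an order that turned among shared intervals (1.25 and 1.73). For GGACT in that class it was 11.6 points (6.36 to 15.6) in 83 exons with it and 6.39 points (5.10 to 8.34) in 485 without.

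Exons of a gene moved together only in part. Over 1319 genes with at least 2 named shared exons, the intraclass correlation of the change was 0.20, and 0.17 after subtracting the median of each exon's width and GC class. The standard deviation within genes was 16.4 points, against 18.3 points over all these exons. In the 241 genes with at least 5 named shared exons the median range within a gene was 40.6 points. The gene median was above 0 in 208 and below 0 in 33, and 65 genes held both an exon up and an exon down by at least 10 points. All exons moved up by at least 10 points in 9 genes. Ranked among shared intervals the gene median was above 0 in 154 and below 0 in 87, 96 genes held exons moving both ways, and all exons moved up in 2 genes.

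The genes below were chosen after their values were seen, as those with the highest and the lowest medians or with many exons. Their counts stand beside 42.3% up and 11.1% down by at least 10 points over all named exons. On the second scale these shares were 27.2% and 21.1%. TPR had the highest median, at 48.0 points over 8 exons, and all 8 moved up, by 14.9 to 80.1 points. Its exon 31 of 51, printed above, had a percentile of 3.37 in CSE and 83.5 with knockdown, with scores of 54.4 and 1475. Its exon 6 had percentiles of 13.1 and 79.9, and exon 40, the highest in CSE, 80.6 and 95.5. In all 8 the knockdown percentile was 50.9 or more, while in CSE it ran from 3.37 to 80.6. Its median of 42.6 points among shared intervals was also the highest, with 7 of 8 exons up by at least 10.

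SMC6, a subunit of a DNA repair complex related to cohesin, had 7 of 7 exons up, by 21.7 to 54.3 points. UTRN, which encodes the cytoskeletal linker utrophin, had 6 of 6 up, by 14.3 to 61.8 points. On the second scale 7 of 7 and 4 of 6 moved up by at least 10. In TOP2B, DNA topoisomerase II beta, 4 of 5 exons moved up by at least 10 points. Exon 28 had percentiles of 0.96 in CSE and 52.8 with knockdown, and exon 35 had 6.32 and 7.13, or -2.11 points among shared intervals. CENPJ is needed for centriole growth. Its exons of 166, 225, 297 and 510 nt moved up by 41.1, 21.4, 47.1 and 37.5 points, and its 1615 nt exon 7, the highest of them in CSE at 73.3, by 1.37 points, or -6.46 points among shared intervals.

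MYH10, the heavy chain of a non-muscle myosin, had 12 shared exons and all 12 had a higher percentile with knockdown, 10 of them by at least 10 points. On the second scale all 12 were also above 0, 7 of them by at least 10. The smallest changes, 4.25 and 7.64 points, were in exons already at percentiles of 91.3 and 87.9 in CSE. Exons 28 and 30 changed most, from 13.8 to 68.6 and from 8.96 to 61.9. Of the cytoskeletal genes, SPTBN1 (spectrin) had 8 of 15 exons up and 0 down, and DST (dystonin) 9 of 14 up and 1 down. On the second scale SPTBN1 had 6 up and 1 down, and DST 9 up and 2 down. With 42.3% of all named exons up, or 27.2% on the second scale, nothing particular to SPTBN1 is read from its counts.

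A median of -10 points or lower was found in 3 of the 241 genes, and in 9 on the second scale. CCDC102A had the lowest median, -29.4 points, with 4 of 5 exons down by 17.8 to 51.1 points. Its last exon, of 693 nt, had percentiles of 52.8 in CSE and 1.65 with knockdown, and its exon 6, at 64.8 and 67.5, was the exception, with -7.06 points on the second scale. LRP5, a Wnt co-receptor, followed with a median of -15.1 points. Its first exon, of 83.2% GC, moved from 42.6 to 6.65, exons 5 and 7 lost 18.7 and 15.1 points, and exon 13 moved the other way, from 20.5 to 54.5. TXLNG had a median of -10.5 points with 3 of 6 exons down and 2 up.

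**Figure D5:**
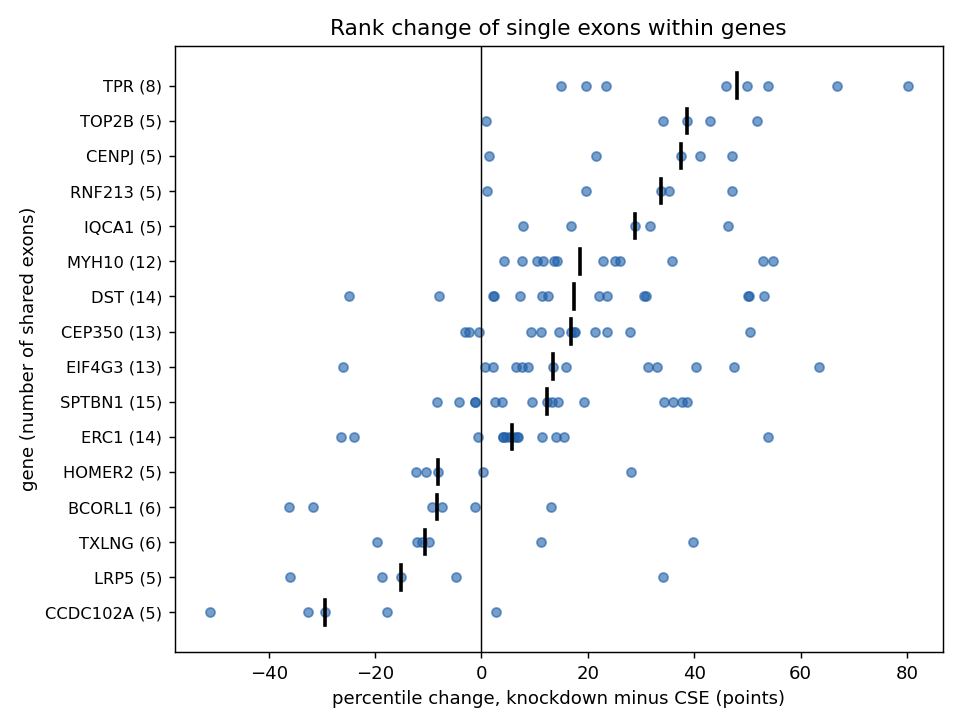
Percentile change (points) of each named shared exon (blue circles) and the gene's median (black bar) in the 5 genes with the highest medians, the 5 with the lowest and 6 genes with 12 to 15 shared exons. All 8 TPR exons and all 12 MYH10 exons lie right of 0, while ERC1 and EIF4G3 hold exons far on both sides.

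Of the 10 shared intervals with the largest gains, 7 could be named and 6 were of up to 300 nt. Gains this large require a low percentile in CSE and a high one with knockdown, so neither is a result. The percentiles ran from 1.35 to 24.9 in CSE and from 74.1 to 95.5 with knockdown. HNRNPM exon 5 (192 nt) gained most, 86.6 points, from a score of 63.0 in the CSE list to a tie at 3100 in the knockdown list. PRRC2C exon 14 followed with 81.7 points and TPR exon 31 with 80.1. An 807 nt exon of SGO1, the protector of centromeric cohesion, moved from 14.3 to 83.8. A 153 nt exon of the kinetochore gene CENPF moved from 10.2 to 79.6. The last exon of SH3BP4, an endocytosis gene, was the widest at 2123 nt and moved from 12.4 to 80.4.

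The 10 largest losses ran from -67.8 to -85.5 points, and 4 could be named. They were wider, with a median of 857.5 nt against 230.5 nt for the gains. RILPL1 exon 4 (222 nt) had percentiles of 86.7 in CSE and 1.17 with knockdown, with scores of 1338 and 51.7. The others named were a 1539 nt exon of KMT2D, a histone methyltransferase, at 88.3 and 15.4, PACSIN2 exon 10 at 80.8 and 12.3, and the first exon of TMEM263 at 74.1 and 6.29. An interval of 1350 nt without a name (chromosome 6, 30710976 to 30712325, minus strand) went from the tie at 3100 to a score of 75.8, a change of -84.1 points. Among shared intervals alone this loss, -91.3 points, was larger than that of the RILPL1 exon, -83.7. The named gains had GC contents from 32.7% to 52.7% and the named losses from 47.1% to 63.7%, so these ranges overlapped.

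At the top, the 458 intervals tied at 3100 in both lists had a median width of 515 nt, and 176 of them were of up to 300 nt and 282 wider. Of these 61.6% were wide, against 37.2% of all shared intervals. The 5 highest by the lower of their percentiles ran from 641 to 3037 nt. Equal percentiles were ordered by larger width, so nothing is read from these widths. All 5 scored above the tie in the knockdown list, at 96.8 or higher in CSE and 99.6 or higher with knockdown. They include a 3037 nt coding exon of ZNF142, a zinc finger gene, and a 975 nt coding exon of the transcription factor SP2. Of the 5 lowest in both, at percentiles of 2.91 or lower, 4 were short. Short intervals made up 62.8% of all shared ones, so nothing is read from this count. Among the 5 were coding exons of MTIF2, the mitochondrial translation initiation factor, and of RERE, a nuclear corepressor. Just outside the rule, the 5 overlapping pairs with the smallest border differences each differed by 1 nt. Their changes were 10.8, -22.2, -4.86, -1.31 and -2.98 points.

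Of the 18 genes of the m6A machinery looked up, 8 held 24 named shared exons, of which 7 moved up and 2 down by at least 10 points, with a median change of 3.26 points (3 up, 3 down and a median of -1.29 points on the second scale). METTL3 was not among the 8. In METTL14, the RNA-binding partner of METTL3, exons 2 and 3 had percentiles of 15.9 and 44.9 in CSE and of 49.7 and 64.5 with knockdown. ZC3H13, a scaffold of the complex, held 10 shared exons, 2 of them up and 0 down, with 4 tied at 3100 in both lists. In YTHDF1, a cytoplasmic reader, an 80 nt exon moved from 48.9 to 2.15, while its 1521 nt exon was tied at 3100 in both. The 628 nt exon 3 of FTO, an m6A demethylase, had 26.1 and 29.3 (-6.23 points on the second scale), and its 78 nt exon 2 had 48.4 and 34.99.

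From the SOCS and JAK-STAT list, both named shared exons of the transcription factor STAT3 moved up, by 17.5 and 14.6 points, while those of the kinase JAK1 had changes of 4.86 and 0.35 points. Among shared intervals the changes were 10.8 and 2.37 points in STAT3 and -5.11 and -8.97 points in JAK1, so the sign turned in JAK1. Of 16 genes of epithelial-mesenchymal transition, 7 held 9 named shared exons, 6 up and 2 down (3 up and 2 down on the second scale). Both exons of CDH1, which encodes E-cadherin, moved up, by 33.1 and 25.7 points. Both of the TGF-beta receptor TGFBR2 also did, by 17.0 and 19.7. The exon of CDH2, another cadherin gene, moved up by 25.5 and that of SMAD2 by 11.1, while that of FN1 changed by 3.87. The 546 nt exon of SNAI2, a repressor of epithelial genes, moved down from 81.7 to 44.1. A 376 nt exon of SMAD4, a TGF-beta signal transducer, moved from 41.2 to 23.8. On the second scale the changes were 18.02 and 11.8 points in CDH1, 15.03 in CDH2 and 4.67 and 7.71 in TGFBR2. They were -0.96 in SMAD2, -2.44 in FN1, -52.4 in SNAI2 and -24.4 in SMAD4. No direction of the transition is read from these 9 exons. None of the 11 oxidative stress genes, the 6 aryl hydrocarbon response genes or the 9 AP-1 genes held a named shared exon. In 1 aryl hydrocarbon response gene an interval of a single list was named, and in the others no interval of either list was. These lists are small, and over all named exons 42.3% moved up and 11.1% down, or 27.2% and 21.1% on the second scale.

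Expression was not analysed here, so the cell type was not checked, and marker genes could only be looked up among the listed exons. Of 7 airway epithelial markers 3 held named shared exons (CDH1, EPCAM and TP63), and of 5 fibroblast and 3 blood markers 0 did. The other airway markers, all keratins, held none either. Only 2016 genes held a named shared exon, and naming needs a second listed interval in the gene. Absence of a marker therefore does not tell cell types apart.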

How the data were processed

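The deposited data are 2 lists of m6A intervals, 1 per condition, with chromosome, start, end, name, score and strand. Per the submitters' processing notes, alignment used HISAT2 2.0.4 and hg19. Names of the peaks begin with MACS. How peaks were called and selected, how replicates were pooled and how deep the libraries were is not stated in these sources. The score is the authors' deposited value per interval, of unstated scale, from 50.0 to 3233 in both lists.

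Positions are hg19, counted from 1. Percentiles were computed with pandas 2.3.3 and numpy 2.4.6, intervals of shares (Wilson) and of medians (order statistics) with scipy 1.17.1. Widths are end minus the deposited start, which the match of widths to exon lengths bears out. Exon lengths, spacing, coding parts and transcript sequences came from GENCODE release 29, which is of another build (GRCh38), so no position was taken from it. Of the 2016 genes named, 2015 were in the table of gene IDs. Exon numbers and coding parts follow a single transcript that holds the exon, protein-coding where possible. It need not be the principal transcript of the gene. Naming and ranking were tested on simulated data. The members and gene lists were chosen with earlier results of these data known. Named intervals are the 10 largest gains and losses, the 5 highest, lowest, widest and narrowest, and exons of the gene lists. No genome of the files' build was used, and no sequence from chromosome 8 was printed. Some items of the gene lists and of the exon comparison are not reported here.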

Additional observations from a re-analysis of the deposited data

How the results depend on the processing

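No paired analysis was possible because each condition had 1 list. Recomputed 47 times under alternatives, the values moved in 15 cases and reversed in 1, while 31 remained inside their 95% interval or, for counts, a factor of 1.5. The GC comparison and its alternatives were chosen after seeing the data. With ranks among the shared intervals only, the median change was -0.23 points, reversed by construction, with 1871 up and 1765 down, a difference between short and wide medians of 4.73 points, and between chromosome 19 and the others of -2.96 points (6.62 and -6.13 in the whole lists). In the upper 50% of both lists the median was 2.87, with 924 up and 262 down, a difference by width of 4.203 points and between the lowest and highest GC class of 5.90 points (7.83 over all named exons, 5.92 in short ones). Below 3100 in both lists the median was 7.52. At 20 points 1631 moved up and 470 down, and at 25 points 1192 and 341. Leaving out chromosome 19, other width limits, a threshold of 5 points and looser overlap were among the 31. No library depth was used, so what depth limits is unknown.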

Other observations

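The widest shared intervals were giant exons. A 12708 nt exon of MUC4, a membrane mucin of airway epithelium whose coding sequence is repetitive, was tied at 3100 in both lists, as were a 6845 nt exon of the proliferation marker MKI67 and a 6578 nt exon of the chromatin regulator ANKRD11. The 7249 nt last exon of PLEC, the cytoskeletal linker plectin, was tied at 3100 in CSE, and scored 1137 with knockdown, a change of -16.8 points.

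The narrowest were far below the length of an RNA fragment in such libraries, at 19 to 32 nt. A 19 nt coding exon of NBR1, an autophagy receptor, had percentiles of 76.6 in CSE and 87.2 with knockdown, and a 30 nt coding exon of HMGN3, a nucleosome-binding protein, had 9.94 and 40.1. All 5 of the narrowest had a higher percentile with knockdown, by 6.93 to 67.8 points. Of all 7258 shared intervals 4714 (64.9%) had a higher one, so nothing particular is read from these 5.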
